A study of Homo sapiens with 33 samples.

Results

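The genes described here are 6 members of olfactory receptor family 7: OR7C1, OR7C2, OR7A5, OR7A10, OR7A17 and OR7D2. They were taken by symbol from the 62446 gene rows counted in each of 33 RNA-seq libraries of human acute lymphoblastic leukaemia (ALL) cell lines. They were chosen by their counts in glucocorticoid-treated against untreated libraries of this series. Their values in treated against untreated cells are therefore given as a description, without a test.

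Olfactory receptors are G protein-coupled receptors of the sensory neurons of the nose, where each neuron usually expresses a single receptor gene and the odorant signal passes through a G protein, adenylyl cyclase and a cyclic nucleotide-gated channel. The genes lie in clusters, and the coding sequence of each usually sits in a single exon. Glucocorticoids, which are used to treat ALL, bind the glucocorticoid receptor (gene NR3C1), which acts as a transcription factor at palindromic DNA elements and raises genes such as TSC22D3 and FKBP5.

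Libraries came from 3 lines, with 3 libraries in each of 11 groups. Nalm6, a B-cell precursor ALL line, was left untreated or was given 0.5 µM CHIR-99021 (a GSK3 inhibitor that activates Wnt signalling), 5 µM prednisolone or 100 nM dexamethasone. A second untreated Nalm6 group belongs to the dexamethasone libraries. In the deposit the Nalm6 prednisolone libraries are listed with the dexamethasone and CEM libraries, apart from the first untreated Nalm6 group. Whether they share an experiment with that group was not established, so drug and set may not be told apart between them. Nalm6 cells with a knockout of TLE1, which encodes a transcriptional co-repressor, were studied untreated, under 5 µM prednisolone and under 100 nM dexamethasone. CEM, a T-cell ALL line, was left untreated or was given 2 µM CHIR-99021 or 10 µM prednisolone. Every treatment lasted 24 h. Nalm6 and knockout cells were kept in medium with charcoal-stripped serum, and whether the knockout is 1 clone is not given in the labels. Independent experiments, 3 for each, are named for CHIR-99021 in Nalm6 and for prednisolone in the knockout. For the other groups p-values measure only the spread between these libraries, which may be technical.

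The libraries held 25292579 to 61930057 gene counts. The 7 B-cell precursor markers were all at 1 CPM (counts scaled to a gene total of 1000000) or more in every Nalm6 and knockout group, as were the 7 T-cell markers in every CEM group. Of the same lists, 4 B-cell precursor markers also reached 1 CPM in each CEM group, and 1 T-cell marker in each Nalm6 and knockout group. Of 6 olfactory neuron markers, 1 reached 1 CPM in each group, and CNGA2 and STOML3 were at 0 in all 11 groups. TLE1 transcript was still counted in the knockout (24.5 ± 0.783 CPM against 32.0 ± 1.89 in untreated Nalm6, SD, n = 3 each). Counts over a whole gene do not show an edit, so this does not check the label.

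OR7C1 and OR7A5 lie on the minus strand of chromosome 19 (GRCh38, GENCODE v29), at 14789260 to 14835376 and 14824251 to 14835285. Annotated transcripts of both genes share a first exon of 212 bases (14835074 to 14835285), in the part before the coding sequence. Each gene also has a transcript that starts at its coding exon. OR7A5 lies within the span of OR7C1, and each has its coding sequence in 1 later exon. OR7A10 (14840466 to 14848922) and OR7A17 (14878203 to 14886132) follow on the same strand, and OR7C2 (14941489 to 14942448) lies on the plus strand. OR7D2 is elsewhere on the chromosome, at 9178979 to 9188817 on the plus strand. The deposited counts use gene IDs lifted to hg19, so exon boundaries in the counting may differ from these models.

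**Figure D1:**
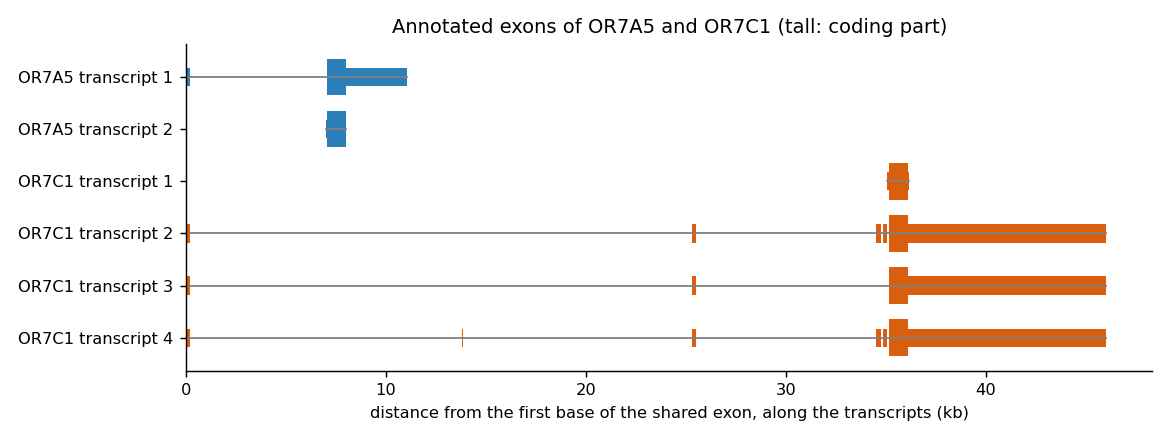
Exons of the protein-coding transcripts of OR7A5 (blue) and OR7C1 (orange) by distance in kb from the first base of the shared exon, with the coding part drawn tall. The first exon is common to transcripts of both genes, while the coding exons do not overlap.

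Both genes also share a RefSeq start (OR7C1 has another at its coding exon), and their promoter windows in RefSeq (GRCh38.p14) are identical over 300 bases. The part of this window upstream of the shared exon is shown because the exon belongs to the only 2 members with a clear glucocorticoid difference. A transcript of OR7C1 that is not protein-coding starts within it, at 14835376. The window before OR7A17, a gene that stayed silent, is shown beside it because it was the most alike of the others. They cover chr19:14835286-14835435 and chr19:14886133-14886382 and are written 5′ to 3′ along the minus strand. Capitals mark the bases that were identical in the local alignment of the 2 windows. The alignment covered bases 53 to 222 of the shared window and ran into the shared exon, where the RefSeq start lies (14835185). The last capitals of OR7A17 thus pair with exon bases that are not printed.
OR7C1 and OR7A5: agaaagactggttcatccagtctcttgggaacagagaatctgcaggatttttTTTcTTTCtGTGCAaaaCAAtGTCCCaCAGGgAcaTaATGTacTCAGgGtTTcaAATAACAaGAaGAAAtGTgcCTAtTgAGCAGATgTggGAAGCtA
OR7A17: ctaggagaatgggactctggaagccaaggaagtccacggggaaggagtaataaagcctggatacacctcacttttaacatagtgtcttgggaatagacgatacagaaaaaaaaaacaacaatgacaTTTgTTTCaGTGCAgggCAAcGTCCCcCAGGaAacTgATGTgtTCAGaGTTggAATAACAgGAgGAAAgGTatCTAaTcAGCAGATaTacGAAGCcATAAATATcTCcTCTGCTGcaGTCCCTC

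The alignment ran over 175 columns at 70.9% identity, while OR7A10, OR7C2 and OR7D2 aligned with the shared window over 18 to 54 columns only. The silent OR7A17 thus has a start region that resembles that of OR7C1 and OR7A5, in part within their shared exon. The hexamer AGAACA, to which a single subunit of the glucocorticoid receptor can bind, was searched on both strands. It was in 14.8% of 34943 RefSeq windows of 300 bases. Among the members it was in the windows of OR7D2 (2 matches) and OR7A10 (1 match) and in none of the others. These are matches of letters, and binding of a factor was not measured here.

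OR7C1, which encodes a receptor protein of the family's C branch, had 0 counts in all 9 untreated libraries of Nalm6, the knockout and the second Nalm6 set. Under prednisolone the Nalm6 libraries had 288, 662 and 650 counts, or 9.78, 12.6 and 11.1 CPM (mean 11.1 ± 1.40, SD, n = 3). Under dexamethasone they had 516, 414 and 487 counts, or 11.9, 10.2 and 11.6 CPM (mean 11.2 ± 0.921). All 6 treated Nalm6 libraries were thus far above untreated libraries at 0. Set against a floor of 3 counts in each untreated library, the OR7C1 level was at least 206-fold higher with prednisolone. With dexamethasone it was at least 138-fold higher. The floors, and the exact intervals of count ratios given further on, cover counting error only.

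The knockout cells had OR7C1 counts of 197, 129 and 138 under prednisolone (5.34, 4.25 and 4.62 CPM, mean 4.74 ± 0.551). Under dexamethasone they had 64, 36 and 33 counts (2.38, 1.42 and 1.13 CPM, mean 1.64 ± 0.652). These means were at least 48.6-fold and 16.8-fold above the floor of the untreated knockout. The dexamethasone knockout libraries have no untreated knockout group named for their set, so drug and set cannot be told apart in the second of these bounds. OR7C1 was thus counted in every treated knockout library and in no untreated one.

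In CEM, OR7C1 had 0 counts in the untreated and CHIR-99021 libraries and 1 count in all 3 prednisolone libraries together. TSC22D3 showed that CEM responded to prednisolone, since it rose from 2.14 ± 0.177 to 136 ± 4.84 CPM (log2 fold change 5.96 ± 0.06 SE, edgeR adjusted p = 3.42e-21). FKBP5, a co-chaperone of the receptor, rose by 2.44 ± 0.05 (adjusted p = 8.88e-17) and NR3C1 by 1.54 ± 0.03 (adjusted p = 1.41e-17). CEM cells thus raised these 3 genes while OR7C1 stayed at or near 0. TLE1 was not called there (log2 fold change 0.07 ± 0.03, adjusted p = 0.104). CHIR-99021 gave 0, 1 and 1 OR7C1 counts in Nalm6, all below the floor of 3 counts.

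OR7A5, which has an annotated transcript that starts in the exon shared with OR7C1, followed the same order of groups. Which start was used in these cells was not measured. It had 0 counts in all untreated, CHIR-99021 and CEM libraries. Nalm6 had 221, 533 and 495 counts under prednisolone (7.50, 10.1 and 8.45 CPM, mean 8.69 ± 1.32) and 494, 432 and 448 under dexamethasone (11.4, 10.6 and 10.6 CPM, mean 10.9 ± 0.460). These means were at least 161-fold and 134-fold above the floor of untreated Nalm6. Nalm6 under 5 µM prednisolone was at least 113-fold above the floor of CEM under 10 µM, although doses and lines both differ between these libraries.

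In the knockout, OR7A5 had 155, 106 and 118 counts under prednisolone (4.20, 3.50 and 3.95 CPM, mean 3.88 ± 0.356) and 33, 53 and 43 under dexamethasone (1.22, 2.10 and 1.47 CPM, mean 1.60 ± 0.449). They were at least 39.8-fold and 16.4-fold above the floor of the untreated knockout. Both genes were therefore high in treated Nalm6, lower in the treated knockout and silent elsewhere.

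**Figure D2:**
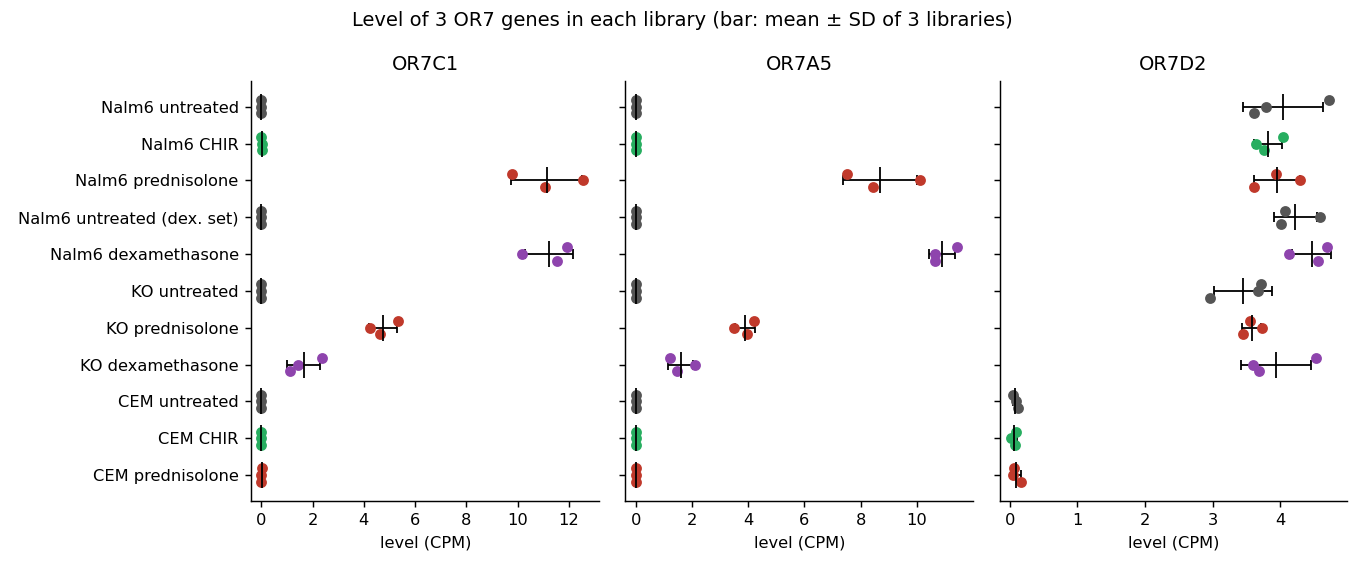
Level in CPM of OR7C1, OR7A5 and OR7D2 in each of 33 libraries, as points, with the mean and SD of 3 libraries per group (KO, TLE1 knockout). OR7C1 and OR7A5 are at 0 in every untreated library and reach 12.6 and 11.4 CPM in treated Nalm6, whereas OR7D2 is between 2.95 and 4.72 CPM in every Nalm6 and knockout library.

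Counted over the 6 members, 2 had all 3 treated libraries above all 3 untreated ones under prednisolone in Nalm6, where 34.2% of all genes tested did. The same 2 did so under dexamethasone (35.7% of genes) and under prednisolone in the knockout (29.3%). None did in CEM (30.4%), where no member passed the filter on low counts. In Nalm6 and the knockout 3 of the 6 passed it.

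The opposite strand was read as a check. OR7C1 had 3 to 29 counts there in every library. Their means were 0.232 CPM in untreated and 0.241 CPM in prednisolone-treated Nalm6, 0.194 and 0.222 in the dexamethasone set, and 0.182 and 0.270 in the knockout under prednisolone. In CEM they went from 0.629 to 0.422 CPM, with all 3 treated libraries below all 3 untreated ones, while the OR7C1 strand was at or near 0. A processed pseudogene on the other strand within OR7C1, AC005255.1, had 17 to 42 counts per group. It had 36 in untreated Nalm6, beside 39 opposite-strand counts of OR7C1, and 42 in untreated CEM, beside 78. Whether these are the same reads was not tested. OR7A5 had 1 opposite-strand read over all 33 libraries, so its signal was on the annotated strand alone.

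The ratio of OR7A5 to OR7C1 counts was 0.781 in Nalm6 under prednisolone (95% exact interval 0.724 to 0.841, 3 libraries pooled) and 0.970 under dexamethasone (0.900 to 1.05). In the knockout it was 0.817 (0.711 to 0.938) and 0.970 (0.755 to 1.25). The 3 prednisolone libraries of Nalm6 were close to each other (0.767, 0.805 and 0.762). The dexamethasone knockout libraries spread from 0.516 (interval 0.328 to 0.797) to 1.47 (0.946 to 2.31). Those intervals do not overlap, and the pooled interval of that group does not cover this difference between libraries. OR7C1 has 11.719 kb of exon apart from the shared one and OR7A5 has 4.049 kb. Per kb of these lengths, the OR7A5 level was 2.26 times the OR7C1 level under prednisolone and 2.81 times under dexamethasone in Nalm6. The OR7C1 length holds an exon of 10890 bases, while the transcripts that start at the coding exon have 1066 bases in OR7C1 and 1029 in OR7A5. Which transcripts were made was not measured, so the per kb ratios depend on the annotated lengths. Reads in the shared exon fit both genes, and how the counting treated them could change these values. The doses of the 2 drugs differ, so they are given side by side and were not compared.

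Levels in the knockout were then tested against Nalm6 under the same drug. This contrast did not itself choose the members. It holds treated libraries that were used in the choice, so its p-values are not independent of that choice. OR7C1 was 2.29-fold lower in the knockout under prednisolone (log2 fold change -1.20 ± 0.12 SE, edgeR adjusted p = 6.11e-06) and 6.82-fold lower under dexamethasone (-2.77 ± 0.15, adjusted p = 9.12e-13). OR7A5 was 2.18-fold lower (-1.13 ± 0.13, adjusted p = 1.96e-05) and 6.81-fold lower (-2.77 ± 0.12, adjusted p = 6.19e-14). Of the 6 members 2 were called lower in each contrast, where 15.6% of 17286 genes tested under prednisolone and 28.1% of 16763 under dexamethasone were called lower (32.5% and 56.6% in either direction). In both contrasts all 3 knockout libraries lay below all 3 Nalm6 libraries for each of these 2 genes. The share of all genes separated in this way was not counted for these contrasts.

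Genes of the glucocorticoid response were also lower in the knockout under the same drug. TSC22D3, a transcription regulator induced by the receptor, fell by 1.11 under prednisolone and by 1.58 under dexamethasone on the log2 scale, and NR3C1 fell by 0.52 and by 0.75. FKBP5 fell by 0.47 and by 1.20. Each passed the edgeR test (largest adjusted p = 1.44e-05, FKBP5 under prednisolone). TSC22D3 was already lower in the untreated knockout (7.39 ± 0.430 CPM against 21.6 ± 1.93, log2 fold change -1.52 ± 0.09, adjusted p = 3.70e-06). Its response to prednisolone was 4.37 ± 0.07 in the knockout and 3.99 ± 0.06 in Nalm6, a difference of 0.41 ± 0.11 (adjusted p = 0.0541). NR3C1 was lower in the untreated knockout too (154 ± 9.84 CPM against 241 ± 1.58, log2 fold change -0.62 ± 0.06, adjusted p = 6.47e-05). FKBP5 was not called between untreated knockout and Nalm6 (0.17 ± 0.08, edgeR adjusted p = 0.158). Its prednisolone response differed by -0.64 ± 0.10, knockout minus Nalm6 (edgeR adjusted p = 0.00135). These untreated comparisons and responses use the first untreated Nalm6 group only. The second had TSC22D3 at 12.3 ± 0.167 CPM, NR3C1 at 219 ± 12.8 and FKBP5 at 83.5 ± 13.1. The size of the differences, and the sign for the TSC22D3 response, may depend on the untreated group used, which was not tested. The part of the TSC22D3, NR3C1 and FKBP5 levels in the result for OR7C1 and OR7A5 was not tested. The labels name no experiment shared by the Nalm6 and knockout libraries, so line and experiment cannot be told apart.

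**Figure D3:**
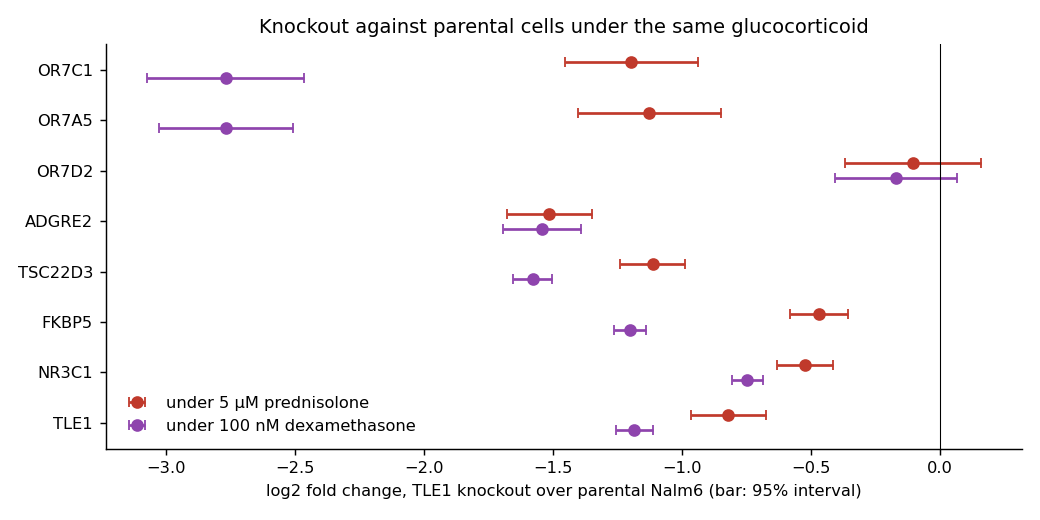
Log2 fold change of the TLE1 knockout over parental Nalm6 under prednisolone (red) and dexamethasone (purple), with 95% intervals, for 3 OR7 genes, ADGRE2 and 4 reference genes. OR7C1 and OR7A5 lie near -1.2 and -1.1 under prednisolone and near -2.8 under dexamethasone, and the OR7D2 intervals include 0.

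OR7A10, OR7C2 and OR7A17, receptors of the same chromosome 19 cluster, stayed silent. OR7A10 and OR7C2 had 0 counts in all 33 libraries, which with a floor of 3 counts over their summed depth allows up to 0.00224 CPM. OR7A17 had 2 counts in 1 untreated Nalm6 library and 1 in a dexamethasone knockout library. OR7A10 and OR7A17 were 88.0% identical in coding sequence, and OR7A5 was 84.8% and 84.1% identical to them. Of the 50-base windows of the coding sequence, 14.6% in OR7A5, 12.5% in OR7A10 and 12.5% in OR7A17 occur in annotated transcripts of another gene, so most windows of that length were particular in sequence to their gene. Of 7 listed pseudogenes named OR7A in the cluster, none had more than 1 count in any group.

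OR7D2, the member outside the cluster, was expressed in Nalm6 without a drug. Its levels were 4.72, 3.80 and 3.61 CPM in untreated Nalm6 and 3.94, 4.29 and 3.62 under prednisolone. In the dexamethasone set they were 4.22 ± 0.317 CPM untreated and 4.46 ± 0.293 treated. The treated and untreated libraries overlapped in both sets, and the log2 fold changes were -0.07 ± 0.12 and 0.05 ± 0.10 SE, given without a test. In the knockout it was 3.45 ± 0.428 CPM untreated and 3.57 ± 0.142 under prednisolone. In CEM it was near the detection limit, with 1 to 6 counts per library and 0.0831 ± 0.0377 CPM untreated, so untreated Nalm6 was 48.6 times higher. Per kb of annotated exon, its level in prednisolone-treated Nalm6 (1.14 CPM per kb) lay between those of OR7C1 (0.951) and OR7A5 (2.15). This order depends on the annotated lengths.

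The knockout did not change OR7D2 beyond the spread. The log2 difference was -0.10 (95% interval -0.37 to 0.16, edgeR adjusted p = 0.560) under prednisolone, -0.17 (-0.41 to 0.07, adjusted p = 0.217) under dexamethasone and -0.21 (-0.52 to 0.11, adjusted p = 0.308) untreated, where 27.1% of genes tested were called. These intervals still allow a modest decrease. CHIR-99021 gave -0.09 (-0.35 to 0.16, adjusted p = 0.703) in Nalm6, where 7.88% of genes were called. In CEM, where CHIR-99021 changed 10.8% of genes, no member passed the filter.

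Genes around the cluster were read for the same contrasts. ADGRE2, an adhesion G protein-coupled receptor best known from myeloid cells, starts 10.7 kb beyond the 3′ end of OR7C1 on the same strand. It rose in Nalm6 from 1.05, 1.27 and 1.18 CPM untreated to 28.8, 29.6 and 28.3 CPM under prednisolone. Its log2 fold change was 4.61 ± 0.08 SE (edgeR adjusted p = 1.48e-17). Under dexamethasone it rose from 0.835 ± 0.250 to 21.9 ± 0.697 CPM (4.68 ± 0.12, adjusted p = 3.13e-13). In the knockout it rose less, from 1.02 ± 0.323 to 9.82 ± 0.943 CPM (3.24 ± 0.18, adjusted p = 4.65e-07). The difference between the knockout and Nalm6 responses to prednisolone was -1.34 ± 0.22 (adjusted p = 0.00173), in a test that called 3.48% of genes.

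ADGRE2 differed from OR7C1 in CEM. There it was expressed without a drug (4.41 ± 0.349 CPM) and fell under prednisolone to 2.55 ± 0.226 CPM (log2 fold change -0.83 ± 0.11, adjusted p = 1.00e-05). CHIR-99021 also lowered it, by 0.91 in Nalm6 (adjusted p = 0.0426) and by 0.76 in CEM (adjusted p = 0.00214) on the log2 scale. Between knockout and Nalm6 the log2 difference was -1.51 ± 0.08 (adjusted p = 1.03e-08) under prednisolone and -1.54 ± 0.07 (adjusted p = 1.51e-13) under dexamethasone.

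**Figure D4:**
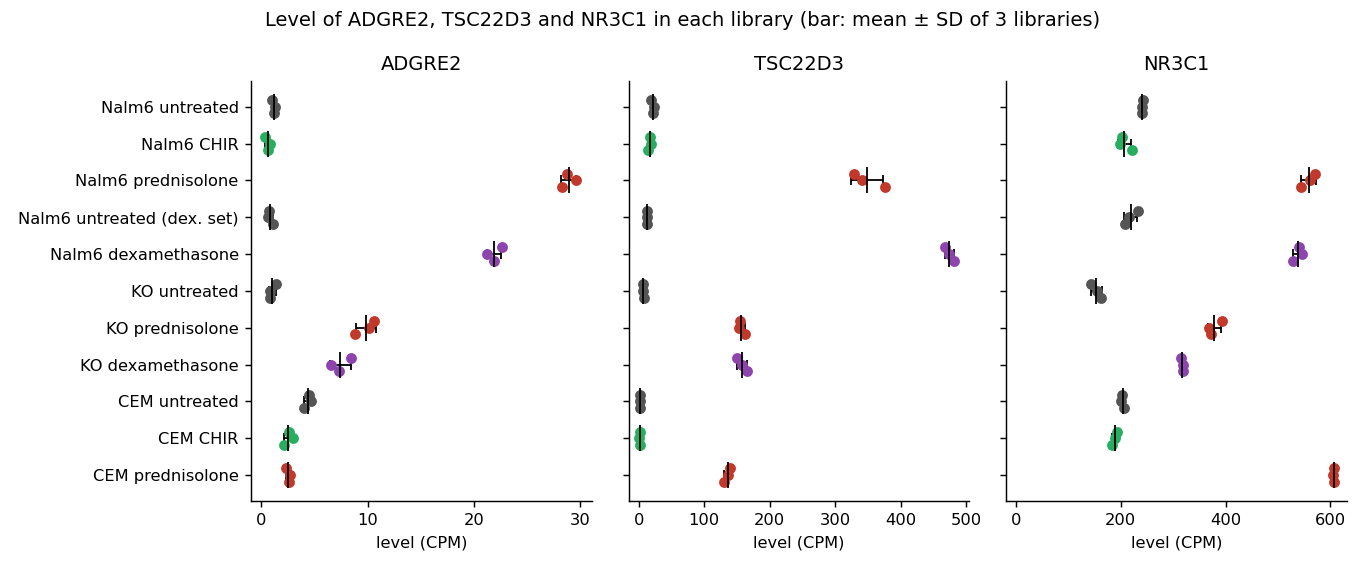
Level in CPM of ADGRE2, TSC22D3 and NR3C1 in each of 33 libraries, as points, with the mean and SD of 3 libraries per group (KO, TLE1 knockout). TSC22D3 rises under glucocorticoid in all 3 lines, whereas ADGRE2 rises in Nalm6 and the knockout and is lower in treated than in untreated CEM.

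Of 24 protein-coding genes within 500 kb of the cluster, 17 were tested in each contrast. Under prednisolone in Nalm6, 4 rose and 5 fell, where 54.8% of all genes tested were called. Dexamethasone gave 6 higher and 4 lower (60.5% of genes called), prednisolone in the knockout 2 and 5 (41.7%) and in CEM 3 and 7 (45.1%). ADGRE5, which encodes the leukocyte receptor CD97, rose in all 4 contrasts, by 1.68, 1.46, 0.87 and 0.65 on the log2 scale. DDX39A, an RNA helicase, fell in all 4 (log2 fold changes of -0.43, -0.47, -0.60 and -0.21). The median log2 fold change of the 17 genes was 0.01 in Nalm6 under prednisolone, beside 0.03 over all genes tested.

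**Figure D5:**
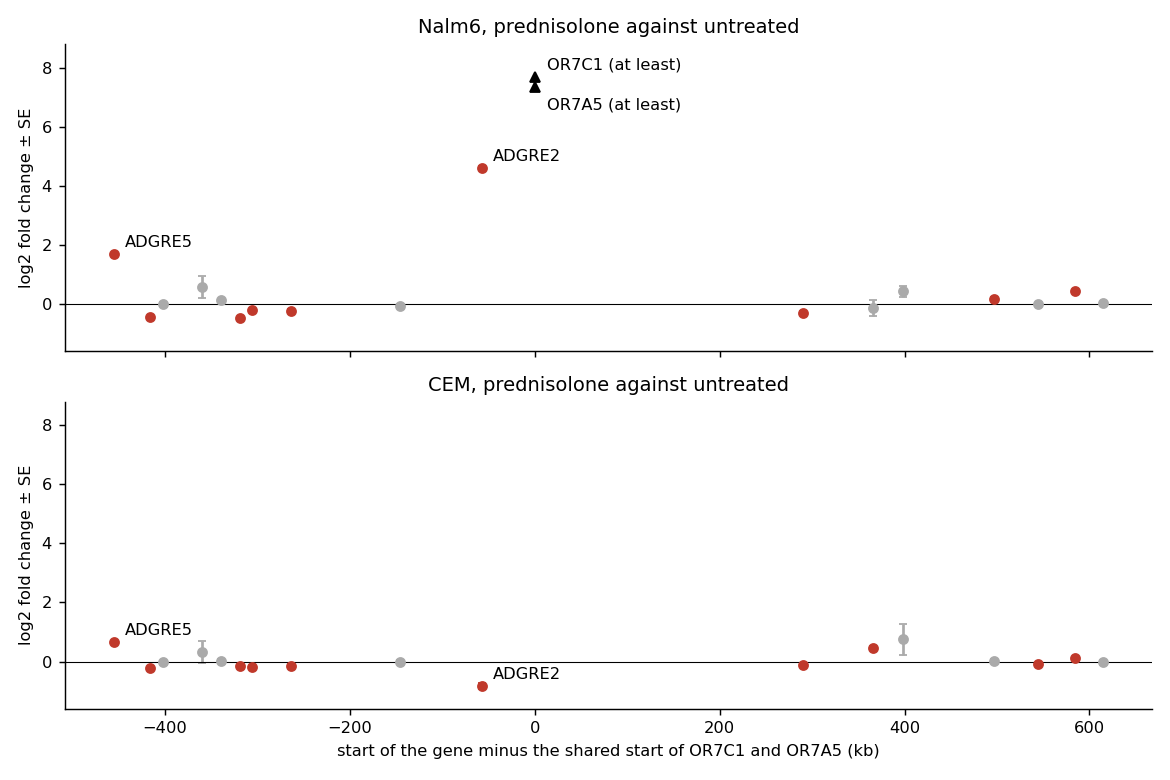
Log2 fold change ± SE of the tested neighbours of the cluster under prednisolone in Nalm6 (upper) and CEM (lower), by distance of the gene's start from the shared start of OR7C1 and OR7A5 in kb (red, adjusted p under 0.05; grey, not called). Triangles mark the lower bounds of OR7C1 and OR7A5 in Nalm6, and ADGRE2 is the neighbour with the largest change there, at 4.61.

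OR7D2 has 22 protein-coding neighbours within 500 kb, most of them zinc finger and olfactory receptor genes. Under prednisolone in Nalm6 11 were tested, and 4 rose while 1 fell (54.8% of all genes called). Under dexamethasone 5 of 10 rose and 1 fell (60.5% called), under prednisolone in the knockout 4 of 10 rose (41.7%), and in CEM 1 of 10 rose (45.1%). These shares are near or below those over all genes. ZNF266, a zinc finger gene, rose by 0.61, 0.68, 0.62 and 0.17 on the log2 scale in these 4 contrasts. The neighbour that fell under prednisolone in Nalm6 was ZNF121, also a zinc finger gene (log2 fold change -0.17, edgeR adjusted p = 0.000696). OR7D2 itself overlapped between treated and untreated libraries.

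Olfactory receptor genes outside the 6 were mostly silent. Of 396 such genes, 329 had no count in the 6 libraries of the Nalm6 prednisolone contrast, and 4 were tested with none called by edgeR (1 at an unadjusted p under 0.05, none by DESeq2). Of 445 olfactory receptor pseudogenes 7 were tested there, with none called and none at an unadjusted p under 0.05. No other olfactory receptor gene was called higher under dexamethasone (1 tested), in the knockout (2 tested) or in CEM (1 tested). With so few genes above the filter, the list says little about genes at low levels.

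OR13A1, an olfactory receptor gene of another family, fell under prednisolone in the knockout (log2 fold change -0.47 ± 0.13, edgeR adjusted p = 0.0116). It was higher in the knockout than in Nalm6 under prednisolone (0.88 ± 0.15, adjusted p = 0.000567) and dexamethasone (1.32 ± 0.10, adjusted p = 3.21e-10).

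Genes that serve olfactory receptors in the nose were read as a list. Of 22 olfactory transduction genes 9 were tested under prednisolone in Nalm6, of which 2 rose and 6 fell (54.8% of all genes called in either direction). The 2 that rose, named after their values were seen, were OMP, a marker of mature olfactory neurons, and RIC8B, a chaperone of the olfactory G protein. OMP went from 0.0108 ± 0.0186 to 0.277 ± 0.0349 CPM (edgeR adjusted p = 2.51e-05), a low level in both groups, and RIC8B rose by 0.13 on the log2 scale (adjusted p = 0.0294). Dexamethasone gave 0 higher and 7 lower of 8 (60.5% of genes called), prednisolone in the knockout 0 and 5 of 8 (41.7%), and in CEM 1 and 3 of 7 (45.1%). ADCY3, the adenylyl cyclase of olfactory neurons, fell by 0.82 and by 0.90 in Nalm6 and by 0.97 in the knockout on the log2 scale, and rose by 0.29 in CEM. GRK3, a kinase that desensitizes such receptors, fell by 0.52 and by 0.69 in Nalm6, by 0.41 in the knockout and by 0.35 in CEM. KDM1A, a histone demethylase that acts in olfactory receptor choice, fell by 0.28 and by 0.48 in Nalm6. The median log2 fold change of the tested genes was -0.19 under prednisolone and -0.37 under dexamethasone in Nalm6, beside 0.03 and 0.02 over all genes tested.

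The genes whose levels ran most like the summed level of the 6 members over the 11 group means were SLC27A3 (Pearson r = 0.998 on log2(CPM + 0.1)), PRMT2, PXDN, ZNF555 and SIN3B, the lowest of these at 0.994. SLC27A3, a fatty acid transporter family gene, was at 15.8 CPM in untreated Nalm6, 70.3 under prednisolone, 36.7 in the knockout under prednisolone and 1.64 in CEM under prednisolone. This sum holds OR7D2, which sets it apart between Nalm6 and CEM without a drug. For OR7C1 and OR7A5 alone, a sum chosen after the values were seen, the first 5 of 14391 genes were GOLGA6GP, GSN-AS1, KDR, LINC00578 and TMEM120A. KDR, a receptor for vascular endothelial growth factor, was at 0.0292 CPM in untreated and 12.9 in prednisolone-treated Nalm6, 2.85 in the treated knockout and 0.00950 in treated CEM. ADGRE2 ranked 209 of 14391 on that measure, with r = 0.902, and 5435 with r = 0.413 against the sum of all 6 members. These coefficients describe 11 group means from the same libraries and carry no test.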

How the data were processed

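RNA was sequenced in 33 libraries, grouped by sample title. The treatment text of the labels assigns the drugs differently, and the titles were followed. As deposited, the values are unnormalized counts of reads for each gene, laid out as the aligner STAR does, without strand (column 2) and on each strand (columns 3 and 4). Per the submitters' processing notes hg19, Bowtie2 and DESeq2 were used, with no role given. The aligner version and annotation release are not given in the sources used here. Column 4 held 12.3 to 15.3 times the counts of column 3 and was used. Reads assigned to no gene (36.0% to 49.2% of a library) stayed out of totals and tests. Replicates differed by more than sampling noise (chi-square per degree of freedom 1.85 to 43.7), and none were merged.

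CPM is the column 4 count over the gene total, times 1000000. Each contrast was fitted on its own groups over all genes with edgeR 4.0.16 (R 4.3.3, filterByExpr, TMM, quasi-likelihood F test, Benjamini-Hochberg, called at 0.05). SEs and intervals come from the F statistic. Folds against a group at 0 use 3 counts per library, averaged over it. The fit was tested on simulated data. The members and lists were chosen with earlier results of these data known. Named genes are the members, 4 reference genes (TSC22D3, FKBP5, NR3C1, TLE1), up to 4 called genes per list and contrast with the largest changes and at least 1 CPM throughout a group, and the 5 genes nearest in pattern. Replicate numbers did not pair the libraries. Alternatives were RLE size factors, DESeq2 1.42.0, other filters, a replicate block, other columns and leaving out each library; those for the neighbours, other receptors, transduction genes and ADGRE2 were chosen after seeing the data, as was the detailed description of ADGRE2. Promoter windows are RefSeq's (GRCh38.p14), matched by symbol for 6 of 6 members.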

Additional observations from a re-analysis of the deposited data

Results flagged for a closer look

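Among ADGRE2 and the 4 reference genes, 3 had a prednisolone response that differed between the knockout and Nalm6 in the edgeR interaction test: ADGRE2 (-1.34 on the log2 scale, knockout minus Nalm6), FKBP5 (-0.64, adjusted p = 0.00135) and TLE1 (-0.46, adjusted p = 0.0136). That test used the first untreated Nalm6 group only. ADGRE2 was higher in prednisolone-treated than in untreated Nalm6 (log2 fold change 4.61) and lower in treated than in untreated CEM (-0.83). ADCY3 was lower in treated than in untreated Nalm6 (-0.82) and higher in treated than in untreated CEM (0.29). For ADGRE2 and ADCY3 the difference between Nalm6 and CEM was not tested, and the prednisolone doses differed between the lines.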

How the results depend on the processing

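The calls of OR7C1 and OR7A5 between knockout and Nalm6 held in 12 of 12 alternatives per contrast. OR7C1 ran from -1.31 to -1.11 under prednisolone and from -3.13 to -2.54 under dexamethasone, and OR7A5 from -1.21 to -1.01 and from -2.99 to -2.61, all log2. OR7D2 was called in none of the alternatives between knockout and Nalm6 or under CHIR-99021, although its small difference changed sign in 1 of 12 for CHIR-99021 in Nalm6. ADGRE2 kept its direction and call in 12 of 12 alternatives in each glucocorticoid contrast. Read on the opposite strand (column 3), 0 members were higher under prednisolone or dexamethasone in Nalm6 or under prednisolone in the knockout, where column 4 gave 2. Leaving out each library gave 2 to 3 members under dexamethasone in Nalm6, the third being OR7D2 without replicate 2 of the untreated set, and 2 in the other contrasts of Nalm6 and the knockout.

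The other olfactory receptor genes and pseudogenes together depended on the settings. Under prednisolone in Nalm6, 0 were called in the reported fit, 1 with RLE size factors, 3 with no filter, 3 in the unstranded column and 0 to 2 without 1 library. With no filter 4 were called under dexamethasone in Nalm6 (0 as reported), 3 in the knockout (1) and 3 in CEM (1), and the unstranded column gave 4 in the knockout. The cause was not tested. The neighbours and transduction genes stayed within 1.5 times their counts under every alternative run.

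The replicate numbers did not pair the libraries: no contrast had all 3 same-number correlations over 0.1, although each library correlated best with its own number in 2 contrasts. With a replicate block 2 members were called in each knockout contrast, as without it, and 2 other olfactory receptor genes or pseudogenes under prednisolone in Nalm6 (0 without it). Depth limits the silent genes: a library's floor of 3 counts is up to 0.119 CPM.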
